A study of Arabidopsis thaliana with 12 samples.

Results

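The heat response examined here is that of *cry1* seedlings of *Arabidopsis thaliana*, ecotype Columbia, which lack the blue-light receptor CRYPTOCHROME 1. It was measured in 6 libraries out of the 12 in the series, namely 3 of *cry1* seedlings held for 2 h at 44°C and 3 of *cry1* seedlings left at 22°C, chosen by their genotype and temperature labels. The other 6 libraries, 3 of wild-type (WT) seedlings at each temperature, entered the shared fit and were used to show where *cry1* differed. According to the labels and the design text, all seedlings were 8 days old, after 7 days of continuous light at 22°C and 1 day of blue light, and the temperature treatment was given in blue light. The study's methods give a shorter first growth period than the design text, so the exact age is uncertain. The mutant was a single *cry1* line, whose allele is not given in the labels, and no rescued line is in the series. RNA came from whole seedlings.

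Heat shock factors (HSFs) are transcription factors that bind heat shock elements, repeats of a short unit centred on GAA or its complement TTC, in front of their target genes. Their targets include the heat shock proteins (HSPs), chaperones that keep proteins from aggregating, refold them or pull them out of aggregates. HSFA1 proteins are present before heat and start the response, and HSFA2 and the HSFA7 proteins are made during heat and extend it. CRY1 absorbs blue light and restrains the COP1-SPA ubiquitin ligase, which otherwise directs the degradation of HY5, a transcription factor for light-regulated genes. Severe heat also lowers the transcription of many genes and changes splicing, and a sequencing library reports only shares of the RNA that remains.

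To show what the regulatory sequence of some heat-responsive genes looks like, the bases before the annotated gene start were searched on both strands. The search was for a heat shock element of 3 units, TTC, GAA and TTC, with any 2 bases between neighbouring units. The element lay within 500 bases upstream of 6 genes on the lists of HSFs, small HSPs and cytosolic chaperones. The stretches around it are printed below in the direction of transcription, from the RefSeq annotation of TAIR10.1, with the element and any G-box (CACGTG, the core bound by HY5 and related factors) in capitals. They lie at chr2:11135516-11135595 on the plus strand for *HSFA2*, chr3:19264929-19265021 on the plus strand for *HSFA7A*, chr3:23399059-23399138 on the plus strand for *HSFA7B*, chr3:16984868-16984986 on the minus strand for *HSP17.4*, chr1:19980226-19980298 on the plus strand for *HSP17.6C* and chr5:21352242-21352321 on the plus strand for *HSP90.1*.
HSFA2: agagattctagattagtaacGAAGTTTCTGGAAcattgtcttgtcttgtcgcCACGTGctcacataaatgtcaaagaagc
HSFA7A: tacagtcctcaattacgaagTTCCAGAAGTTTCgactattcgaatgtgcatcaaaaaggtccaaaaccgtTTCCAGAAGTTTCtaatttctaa
HSFA7B: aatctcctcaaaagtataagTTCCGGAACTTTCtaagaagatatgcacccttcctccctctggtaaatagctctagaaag
HSP17.4: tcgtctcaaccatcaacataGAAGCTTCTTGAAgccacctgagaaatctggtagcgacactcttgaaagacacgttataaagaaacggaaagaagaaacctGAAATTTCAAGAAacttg
HSP17.6C: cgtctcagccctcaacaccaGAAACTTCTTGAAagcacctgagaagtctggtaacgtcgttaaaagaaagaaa
HSP90.1: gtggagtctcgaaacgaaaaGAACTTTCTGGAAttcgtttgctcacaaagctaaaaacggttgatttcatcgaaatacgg

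In the *HSFA2* stretch the element began 88 bases before the gene start, and a G-box stood a short way downstream of it. *HSFA7A* carried 2 elements, 192 and 142 bases before its start, and *HSP17.4* also carried 2. The first 60 bases of the *HSP17.4* and *HSP17.6C* stretches, aligned at the element, were identical at 36 positions. The transcripts of all 6 genes rose in *cry1* at 44°C, with log2 fold changes of 10.32 for *HSFA2*, 5.72 for *HSFA7A*, 10.66 for *HSFA7B*, 11.99 for *HSP17.4*, 14.11 for *HSP17.6C* and 8.37 for *HSP90.1* (each at an adjusted p of 3.2e-10 or less in edgeR's quasi-likelihood test). On the same lists, 11 of 19 tested HSFs, 15 of 16 small HSPs and 22 of 24 cytosolic chaperones rose. Most members that rose thus did not carry this element in the window. A match is a description of the letters and not evidence of binding.

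The libraries of *cry1* held 18616032 to 21752822 counts at 22°C and 15228950 to 16150210 at 44°C, and those of WT held fewer. A level of 3 counts corresponded to 0.138 to 0.161 CPM (a gene's count scaled to the total of its library) at 22°C and 0.186 to 0.197 CPM at 44°C, which is counting error only. Replicates of a group correlated at r = 0.986 to 0.991 over genes on the log2 CPM scale in *cry1* and differed by more than sampling noise. The mutated gene was near the detection limit in the mutant, as its label requires. *CRY1* (AT4G08920, chromosome 4) had 0.23, 0.107 and 0.26 CPM in the 3 *cry1* libraries at 22°C and no count in the 3 at 44°C, against means of 213 and 164 CPM in WT.

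Seedlings without CRY1 responded to 44°C with a very large rise in the transcripts of chaperones and their regulators and with lower shares of most other transcripts. Of 26891 genes in the table, 20213 reached a mean of 0.5 CPM over the 12 libraries and were tested. At an adjusted p below 0.05 and a change of at least 2-fold, 1163 genes were higher at 44°C (5.75% of those tested) and 11729 were lower (58.0%). At the adjusted p alone, 2402 genes were higher (11.9%) and 15365 were lower (76.0%). The 3 values at 44°C did not overlap the 3 at 22°C for 17979 genes (88.9%). In both directions the measurable size of a change is bounded by the detection limit. More genes fell than rose by at least 5 log2 units, 350 against 112, while 24 rose and 4 fell by at least 10. The plot of levels at both temperatures shows these rises as a cloud far above the main body of genes.

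**Figure D1:**
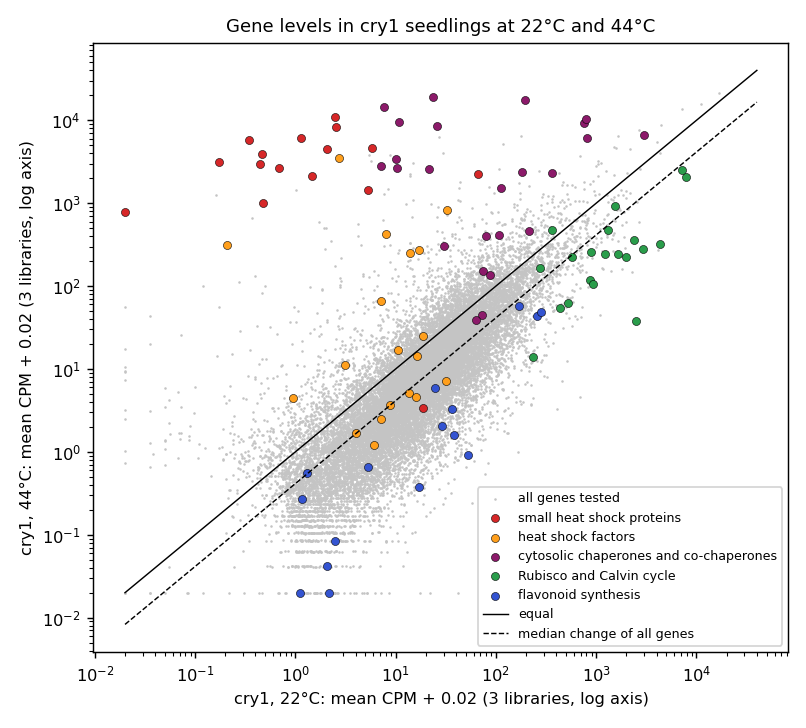
Mean CPM of each tested gene in *cry1* seedlings at 22°C (x axis) and 44°C (y axis), both on log axes after adding 0.02, with 5 gene lists in colour. The solid line marks equal levels and the dashed line the median log2 change of all genes, -1.27; small HSPs and cytosolic chaperones lie far above both lines, and Calvin cycle and flavonoid genes lie mostly below.

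The balance of rises and falls depended on the scale. CPM divides by the library total, and on that scale the median gene changed by -1.27 log2 units. When libraries were scaled by the median of the gene-wise ratios between them, which sets the middle gene near 0, the median was -0.08, and 4056 genes were called higher and 5109 lower. Of the called genes, 9.02% were higher on CPM and 44.3% on the median-ratio scale. All 1163 genes called higher on CPM were also called higher on the median-ratio scale, whereas 43.6% of those called lower on CPM were also called lower there. At the adjusted p alone, 36.6% of genes were higher and 39.2% were lower on the median-ratio scale. No spike-in that would fix the absolute scale is described in the sources used here. Below, a rise or fall is relative to the library total unless the median-ratio scale is named, and the median-ratio value is given where it reverses or removes a call. Because the samples are whole seedlings, fewer cells of a type and less RNA per cell cannot be told apart.

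A few genes took over the libraries at 44°C. In *cry1* at 22°C, 1073 to 1093 genes were needed to reach 50% of the counts, and at 44°C 199 to 219 sufficed. The 100 leading genes held 20.7 to 20.9% of counts at 22°C and 40.3 to 41.8% at 44°C. The lists of small HSPs and cytosolic chaperones together went from 0.668 to 0.778% to 17.7 to 19% of all counts. The number of genes with at least 1 CPM was 19475 to 19561 at 22°C and 16559 to 16675 at 44°C. In WT, 757 to 775 genes made up the same 50% at 22°C and 218 to 264 at 44°C, so the 22°C libraries of *cry1* were spread over more genes than those of WT and the heated ranges of both genotypes overlapped. The plot of cumulative shares shows the 4 groups.

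**Figure D2:**
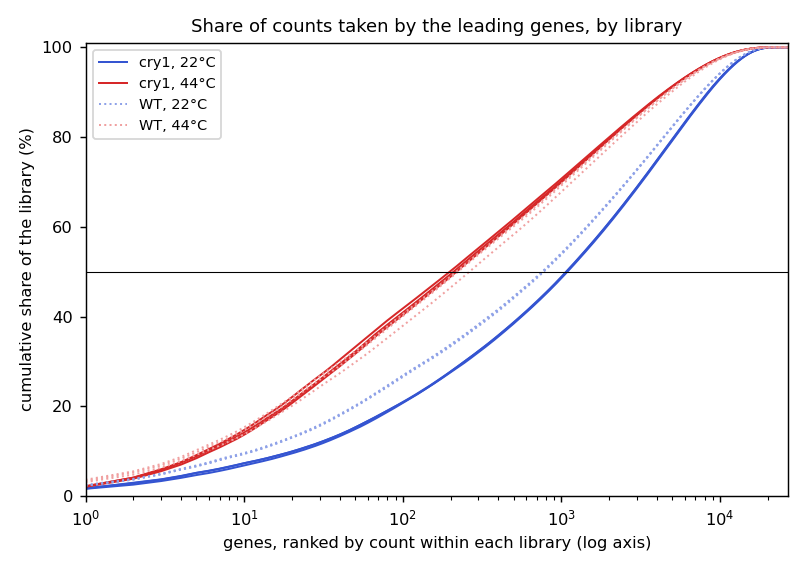
Cumulative share of the counts (y axis, %) against genes ranked by count within each library (x axis, log), 1 line per library and 12 in all, with *cry1* solid and WT dotted. The 3 *cry1* libraries at 22°C cross 50% (thin horizontal line) at 1073 to 1093 genes and the 3 at 44°C at 199 to 219.

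The 5 genes with the largest gain in share were all chaperones. *HSP101* (AT1G74310), the ClpB-type disaggregase of the cytosol, had 29.5, 21.1 and 19.5 CPM at 22°C and 18014, 19756 and 18875 CPM at 44°C. *HSP70B* (AT1G16030), a heat-inducible HSP70, went from 8.87, 6.18 and 7.74 to 14162, 15759.5 and 13941 CPM. *HSP70* (AT3G12580), another inducible HSP70, went from 265, 169 and 145 to 16825, 18585 and 16915 CPM. In each case the temperatures were far apart and the heated libraries lay within a narrow band. *HSP17.8*, a cytosolic small HSP, went from 2.299, 2.95 and 2.18 to 10694, 11582 and 10735 CPM, and *HSP90.2*, a constitutive cytosolic HSP90, from 865, 779 and 727 to 10050.1, 11088 and 10382 CPM. The 5 largest losses were *RBCS1A*, *RBCS2B* and *RBCS3B*, which encode small subunits of Rubisco, *RCA*, which encodes Rubisco activase, and *PYK10*, which encodes a root-abundant β-glucosidase of ER bodies. *RBCS1A* fell from 8014, 7694 and 8087 to 2118, 1992 and 2097 CPM and *RCA* from 7099.9, 6968 and 7199 to 2479, 2567 and 2560.4 CPM.

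Of the 21 *HSF* genes, 19 passed the filter, and 11 rose while 7 fell (12 and 3 on the median-ratio scale), with a median of 0.66 against -1.27 over all genes. *HSFA7B* was almost silent before heat, with 0.138, 0.322 and 0.104 CPM, and reached 294, 333 and 310.3 CPM (log2 fold change 10.66 ± 0.17, where ± is the standard error, adjusted p = 4.6e-21). *HSFA2* went from 3.999, 2.74 and 1.402 CPM to 3335, 3704 and 3519.7 CPM (10.32 ± 0.34, adjusted p = 3.2e-10). Its 22°C values differed by more between libraries than its values at 44°C did. *HSFA7A* rose by 5.72 ± 0.09 from 8.64, 7.63 and 7.53 CPM. The largest falls were those of *HSFA6A* (-2.33 ± 0.35), *HSFC1* (-2.17 ± 0.19) and *HSFA5* (-1.78 ± 0.13), which also passed the test on the median-ratio scale, at -1.14, -0.98 and -0.59. The family thus moved in both directions within the same libraries.

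Small HSPs hold unfolding proteins in a refoldable state. Of 16 tested, 15 rose and 1 fell, with a median log2 fold change of 11.83. *HSP21*, which acts in chloroplasts, had no count in any *cry1* library at 22°C and 774, 852 and 745 CPM at 44°C, at least 15699.5-fold higher when the 22°C libraries together are set at 3 counts. The mitochondrial *HSP23.6* had 0.138, 0.322 and 0 CPM at 22°C and 2988, 3394 and 3079.6 CPM at 44°C. The cytosolic *HSP17.6C* had 0.138, 0.483 and 0.363 CPM and then 5779, 5963 and 5605 CPM. Each of these went from near or below the level of 3 counts to levels far above it. *HSP15.4* was the exception, with 23.4, 15.2 and 17.3 CPM at 22°C and 4.89, 2.16 and 3.09 CPM at 44°C (-2.46 ± 0.24, adjusted p = 1.1e-07).

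Among 24 cytosolic chaperones and co-chaperones, 22 rose and 2 fell (24 and 0 on the median-ratio scale). *BAG6*, a heat-inducible co-chaperone of the BAG family, went from 10.3, 9.56 and 12.3 CPM to 9100.0, 9970.4 and 9235 CPM (9.78 ± 0.19). *HSP101* and *HSP70B*, given above, rose by 9.66 ± 0.21 and 10.90 ± 0.14. The falls were those of *HSP90.4*, at -0.68 ± 0.07, and *HOP1*, a co-chaperone that links HSP70 and HSP90, at -0.71 ± 0.09, and both turned to rises on the median-ratio scale, at 0.51 and 0.48. *HSP90.4* has near-identical neighbours in *HSP90.2* and *HSP90.3*, so its reads may have been divided among them.

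Regulators outside the HSF family followed, with 8 of 12 higher and 4 lower (10 and 1 on the median-ratio scale). *MBF1C*, a transcriptional coactivator needed for thermotolerance, went from 30.7, 27.8 and 23.4 CPM to 6256, 6369 and 6046 CPM (7.83 ± 0.12). *DREB2A*, which activates *HSFA3* under heat, rose from 8.18, 6.55 and 8.00 CPM to 1345, 1266 and 1301 CPM (7.42 ± 0.13). *HSA32*, which prolongs acquired thermotolerance, rose by 7.07 ± 0.13. *HIT4*, a nuclear protein linked to the release of silencing in heat, fell by 5.45-fold (-2.44 ± 0.11). The falls of *HSBP*, which binds HSFs and damps their activity (-0.93 ± 0.11), and of the histone demethylase gene *JMJ30* (-0.90 ± 0.15) became positive on the median-ratio scale, at 0.27 and 0.30. The plot by gene list gives every member.

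**Figure D3:**
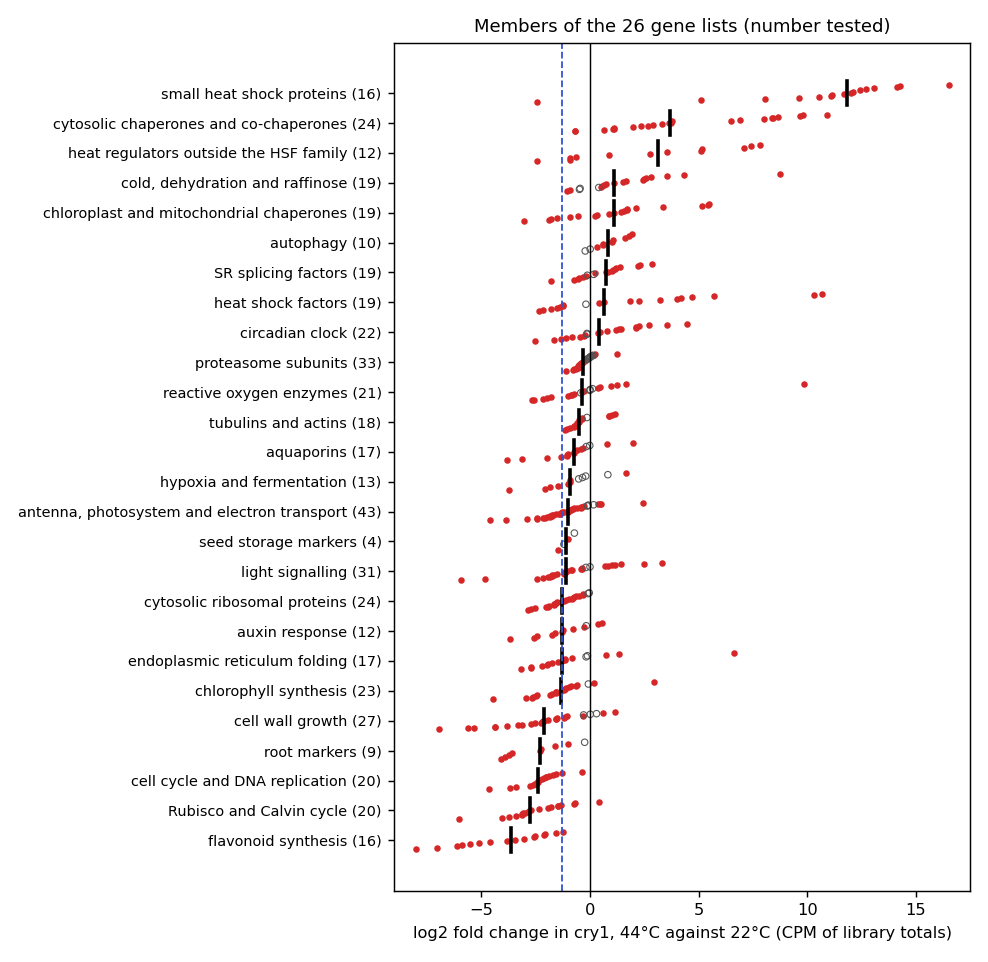
Log2 fold change in *cry1* at 44°C against 22°C (x axis, CPM of library totals) of each tested member of 26 gene lists, with the number tested beside each name. Filled red points passed an adjusted p of 0.05 and open points did not; the black bar is the list's median, the solid line 0 and the dashed line the median of all genes, -1.27. Small HSPs have the highest median, 11.83, and flavonoid synthesis the lowest, -3.63.

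Of 19 tested chaperones of chloroplasts and mitochondria, 13 rose and 6 fell (15 and 4 on the median-ratio scale). *MTHSC70-2*, the inducible mitochondrial HSP70, went from 126, 111 and 112 CPM to 5114, 5229 and 5226 CPM (5.48 ± 0.09). The disaggregases *CLPB4* of mitochondria and *CLPB3* of chloroplasts rose by 5.41 ± 0.09 and 5.16 ± 0.09. *CPN60B1*, which encodes part of the chaperonin of chloroplasts, fell from 434, 423 and 487 CPM to 63.7, 50.9 and 47.5 CPM (-3.05 ± 0.12). *MTHSC70-1*, the other mitochondrial HSP70, fell by 3.64-fold (-1.86 ± 0.10). The 2 mitochondrial HSP70 genes therefore moved in opposite directions, and did so on the median-ratio scale as well (6.67 and -0.67).

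Folding in the endoplasmic reticulum (ER) had 3 of 17 genes higher and 12 lower, a median of -1.31 and 6 higher and 8 lower on the median-ratio scale. The CPM counts were near the shares over all tested genes, 11.9% higher and 76.0% lower. The median was next to the -1.27 of all genes. *ERDJ3A*, an ER co-chaperone, stood apart, going from 3.999, 4.89 and 3.69 CPM to 397, 425 and 400.4 CPM (6.60 ± 0.11). *BZIP28*, a membrane-bound sensor and transcription factor of ER stress, rose by 1.33 ± 0.08, and *BIP1*, the ER HSP70, by 0.74 ± 0.07. The calreticulin gene *CRT1A* fell by 9.13-fold (-3.19 ± 0.11), and the protein disulfide isomerase genes *PDIL2-1* and *PDIL1-2* by 6.65-fold and 6.61-fold. *BIP1* and *BIP2* share much of their sequence, and reads could be split between them.

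Of the 21 genes for enzymes that make or remove reactive oxygen species, 6 rose and 11 fell (13 and 5 on the median-ratio scale). *APX2*, a cytosolic ascorbate peroxidase and HSF target, went from 0.0919, 0.107 and 0.104 CPM, under the 3-count level in each library, to 105, 111 and 87.4 CPM (9.86 ± 0.20). The catalase genes *CAT3* and *CAT1* rose by 1.65 ± 0.10 and 1.25 ± 0.10. The NADPH oxidase genes *RBOHD* and *RBOHF* fell by 6.28-fold and 4.52-fold. The plastid superoxide dismutase gene *FSD3* fell from 30.5, 29.5 and 31.6 CPM to 6.01, 4.71 and 4.3995 CPM.

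Of 33 proteasome genes, 3 rose and 21 fell, with the narrow range of -1.11 to 1.25, and on the median-ratio scale 32 rose and 0 fell, so that the sign of this family's change was set by the scale. *RPN6*, a lid subunit, was the only member past 2-fold upward, from 123, 118 and 116 CPM to 289, 288 and 275 CPM. *RPT2A* fell the most on CPM (-1.11 ± 0.07) and had 0.09 on the median-ratio scale. Autophagy genes rose on both scales, 8 of 10 on CPM with none lower and 10 of 10 on the median-ratio scale. *ATG8B*, *ATG8E* and *ATG8F*, which encode the ubiquitin-like protein that coats autophagosomes, rose by 1.92 ± 0.12, 1.80 ± 0.10 and 1.61 ± 0.08.

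SR proteins choose splice sites in pre-mRNA. Of 19 *SR* genes, 11 rose and 6 fell on CPM, and 18 rose and 0 fell on the median-ratio scale. *SR30* went from 60.5, 50.4 and 49.7 CPM to 357, 403 and 398 CPM (2.85 ± 0.09), and *RS40* and *SCL33* rose by 2.29 ± 0.07 and 2.22 ± 0.09. The falls of *RSZ22A* (-0.74 ± 0.10), *SR34A* (-0.56 ± 0.09) and *SCL30A* (-0.50 ± 0.09) turned positive on the median-ratio scale, at 0.46, 0.63 and 0.69. Of the cytosolic ribosomal protein genes, none of 24 rose and 22 fell, with a median of -1.28, next to the median of all genes, and 10 rose and 11 fell on the median-ratio scale. *RPL27AC* fell from 284, 307 and 319 CPM to 49.6, 42.2 and 44.8 CPM, and *RPL24A* and *RPSAB* fell by 5.74-fold and 7.14-fold.

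Transcripts for carbon fixation had a lower median than those for light harvesting. Of 20 Rubisco and Calvin cycle genes, 19 fell and 1 rose (16 and 3 on the median-ratio scale), with a median of -2.75. *RBCS1B* fell from 2715, 2394 and 2297 CPM to 37.2, 35.1 and 40.6 CPM (-6.04 ± 0.13), whereas its family member *RBCS1A* fell less (-1.94 ± 0.08). *RPI3*, a ribose-5-phosphate isomerase gene, fell by 16.7-fold. *CP12-1*, whose product ties together enzymes of the cycle in the dark, rose by 0.40 ± 0.08. The *RBCS* genes are close in sequence, so counts for single members carry some uncertainty.

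Of 43 genes for antenna proteins, photosystems and electron transport, 35 fell and 4 rose (16 and 20 on the median-ratio scale). The CPM counts were near the shares over all tested genes, 76.0% lower and 11.9% higher. The median of -1.03 lay near the median of all genes. *PSBS*, needed for the dissipation of excess light as heat, fell from 1101, 1047 and 1106 CPM to 46.4, 41.6 and 45.0 CPM (-4.61 ± 0.13). *LHCB4.3* and the ATP synthase subunit gene *ATPD* fell by 14.5-fold and 7.56-fold. Members of the major antenna family rose, with *LHCB1.4* going from 303, 545 and 428 CPM to 1914, 2293 and 2738 CPM (2.44 ± 0.23) and *LHCB1.3* and *LHCB1.5* rising by 0.51 ± 0.10 and 0.44 ± 0.11. The *LHCB1* genes are near-identical copies, and how reads were divided among them could change these values.

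Among 23 genes of chlorophyll synthesis, 20 fell and 2 rose (11 and 7 on the median-ratio scale). The median was -1.32, next to -1.27 over all genes, of which 76.0% were lower and 11.9% higher on CPM. *DVR*, which reduces the vinyl group of divinyl chlorophyllide, fell from 68.4, 69.1 and 78.9 CPM to 3.72, 3.01 and 3.09 CPM. *CHLG* and *CHLI2* fell by 7.66-fold and 6.45-fold. The rise of *PORA*, a protochlorophyllide oxidoreductase gene of etiolated seedlings, had values of 41.2, 19.96 and 4.3995 CPM at 44°C against 1.06, 3.12 and 4.52 CPM at 22°C. These overlapped, and in a fit of the 6 *cry1* libraries alone the call was lost. Its log2 fold change of 2.93 ± 0.78 was 2.08 without replicate 1 at 44°C. *CRD1* was the other riser, at 0.17 ± 0.07, and its call was lost without replicate 1 or 2 at 22°C, where it was 0.15 or 0.16, and without replicate 2 or 3 at 44°C, where it was 0.16 or 0.15.

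Of 31 genes of light signalling, 7 rose and 22 fell (13 and 11 on the median-ratio scale). On CPM, the share that fell was near the 76.0% over all tested genes, and the share that rose lay above the 11.9% over all. *HY5*, the transcription factor degraded through COP1, rose from 19.4, 19.2 and 17.55 CPM to 49.7, 47.7 and 52.7 CPM (1.42 ± 0.11, adjusted p = 1.5e-10). *BBX22*, a B-box partner of HY5, rose by 2.49 ± 0.10, and *ELIP1*, an early light-induced protein of thylakoids, rose from 5.29, 3.92 and 5.09 CPM to 53.3, 53.3 and 36.4 CPM. *BIC1* and *BIC2*, small inhibitors that keep cryptochromes inactive, fell from 12.4, 11.01 and 9.87 and 8.14, 7.47 and 5.76 CPM to 0.619, 0.196 and 0.328 and 0.124, 0 and 0.197 CPM. *SPA4*, a partner of COP1, fell by 4.47-fold.

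The plants were kept in continuous light, and clock genes moved in both directions, with 12 of 22 higher and 8 lower (17 and 2 on the median-ratio scale). *PRR9* and *PRR7*, repressors of the morning loop, rose from 8.83, 8.76 and 8.72 to 182, 195 and 211 CPM and from 35.4, 34.5 and 34.3 to 208, 238 and 245 CPM. *RVE7*, a Myb-like gene of the clock family, rose by 3.52 ± 0.09. *ELF4*, part of the evening complex, fell by 5.86-fold and the morning gene *LHY* by 3.17-fold. *FKF1*, a blue-light receptor of the F-box type, had a log2 fold change of -1.32 ± 0.16 on CPM, and on the median-ratio scale its change of -0.13 did not pass (adjusted p = 0.46).

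Flavonoid synthesis had the lowest median of the 26 lists. All 16 tested genes of 21 fell (14 on the median-ratio scale, with none higher), with a median of -3.63. *TT4*, chalcone synthase and the entry enzyme of the pathway, fell from 48.4, 53.6 and 57.0 CPM to 1.36, 0.589 and 0.722 CPM (-5.87 ± 0.20). *FLS1*, flavonol synthase, fell from 16.2, 16.1 and 19.4 CPM to 0.681, 0.327 and 0.0657 CPM. *CHIL*, a chalcone isomerase-like helper protein, fell by 24.3-fold. The heated values of *FLS1* lay around the 3-count level.

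Genes of the cold, dehydration and raffinose list rose, 14 of 19 with 2 lower (16 and 0 on the median-ratio scale). *GOLS1*, galactinol synthase and an HSF target in the path to raffinose, went from 8.87, 8.65 and 8.88 CPM to 3639, 3939 and 3741 CPM (8.74 ± 0.10). *GOLS2* rose by 3.54 ± 0.13, and *CBF2*, an activator of cold-regulated genes, rose from 2.94, 2.47 and 2.34 CPM to 60.4, 41.2 and 53.2 CPM. *RS5*, raffinose synthase, and *COR413-PM1* fell, with log2 fold changes of -1.07 ± 0.10 and -0.94 ± 0.12. Both of these values turned slightly positive on the median-ratio scale, at 0.12 and 0.26. The core hypoxia list had 1 of 13 genes higher and 8 lower (5 and 3 on the median-ratio scale). Over all tested genes 11.9% were higher and 76.0% lower on CPM. The list's median of -0.94 lay above the -1.27 of all genes. *PDC2*, a pyruvate decarboxylase gene, was the riser, at 1.67 ± 0.08. *SUS4* and *LDH1* fell by 4.22-fold and 3.63-fold, and *PDC1* fell as well, from 6.34, 8.76 and 8.83 CPM to 5.45, 3.60 and 2.82 CPM, with a log2 fold change of 0.19 on the median-ratio scale.

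Most genes of growth fell. Of 27 genes that loosen or build the cell wall, 22 fell and 2 rose (15 and 6 on the median-ratio scale), with a median of -2.12. The CPM counts were near the shares over all tested genes, 76.0% lower and 11.9% higher. The median lay below the -1.27 of all genes. On the median-ratio scale 39.2% of all genes were lower and 36.6% higher. The expansin gene *EXPA1* fell from 385, 369 and 463 CPM to 2.66, 3.93 and 3.22 CPM (-6.96 ± 0.18), and *EXPA15* and *EXPA10* fell by 48.3-fold and 40.8-fold. *EXPA15* had 20.8, 27.0 and 37.3 CPM at 22°C and 0.372, 1.05 and 0.328 CPM at 44°C, and its log2 fold change of -5.59 ± 0.33 was -6.30 without replicate 2 at 44°C. *XTH24* rose by 0.57 ± 0.15, while the rise of *XTH15* (1.13 ± 0.38) was lost without replicate 1 or 3 at 22°C (1.04 in both cases) or replicate 2 at 44°C (0.88). All 20 cell cycle and DNA replication genes fell (17 on the median-ratio scale, with 1 higher), with a median of -2.39. *CYCA1;1* fell from 6.44, 13.4 and 15.8 CPM to 0.619, 0.262 and 0.525 CPM, *CYCB1;2* by 12.9-fold and the replicative helicase gene *MCM2* by 6.71-fold.

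Of 12 auxin-response *Aux/IAA* genes, which encode short-lived repressors of auxin signalling, 9 fell and 2 rose (4 and 4 on the median-ratio scale). *IAA4* fell from 66.7, 70.0 and 74.7 CPM to 11.95, 12.96 and 11.03 CPM and *IAA7* rose from 341, 373 and 336 CPM to 501, 516 and 525 CPM. Of 17 aquaporin genes, 13 fell and 2 rose (3 and 10 on the median-ratio scale). The CPM counts of both lists were near the shares over all tested genes, 76.0% lower and 11.9% higher. *PIP2;8* and *TIP2;2* fell, with log2 fold changes of -3.80 ± 0.36 and -3.15 ± 0.17, and *PIP2;3* rose by 1.98 ± 0.16. For most tubulin and actin genes, often taken as stable references, the direction depended on the scale. On CPM 13 of 18 were lower and 4 higher, and on the median-ratio scale 0 were lower and 16 higher. The share lower on CPM was near the 76.0% over all tested genes. On CPM, 2 members rose and 2 fell by at least 2-fold. *ACT2* and *ACT8* rose from 788, 752 and 701 to 1506, 1450.2 and 1545 CPM and from 449, 436 and 361 to 948, 887 and 944 CPM, and *TUB7* fell on CPM (-1.04 ± 0.10), with 0.16 on the median-ratio scale.

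Among markers of roots, 8 of 9 tested of 10 fell, against 76.0% of all tested genes. The markers had a median of -2.31, against -1.27 over all genes (7 lower and 1 higher on the median-ratio scale). Their summed share, nearly all of it from *PYK10*, went from 0.379 to 0.47% of counts to 0.0266 to 0.0315%. *PYK10* fell from 4598, 3698 and 4025 CPM to 293, 279 and 243 CPM, *CASP4*, a protein of the endodermal barrier, from 9.38, 7.74 and 5.97 CPM to 0.495, 0.393 and 0.46 CPM, and *SCR*, which specifies the endodermis, by 13.1-fold. The part that root content or sampling had in the falls above was not tested. Seed storage transcripts were uneven between libraries, for a reason that was not tested, and 4 of the 9 genes passed the filter. Their summed share was higher in *cry1* than in WT, at 0.00864 to 0.04% against 0.00211 to 0.00351% of counts at 22°C and 0.00622 to 0.013% against 0.000368 to 0.00126% at 44°C. The part that this gap had in the differences from WT was not tested. *CRA1*, a cruciferin, had 229, 52.4 and 177 CPM at 22°C and 70.8, 65.4 and 30.2 CPM at 44°C, and these overlapped. Its call (log2 fold change -1.46 ± 0.57) was lost without any of 5 libraries, all but replicate 2 at 22°C, with values from -1.68 to -1.05.

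**Figure D4:**
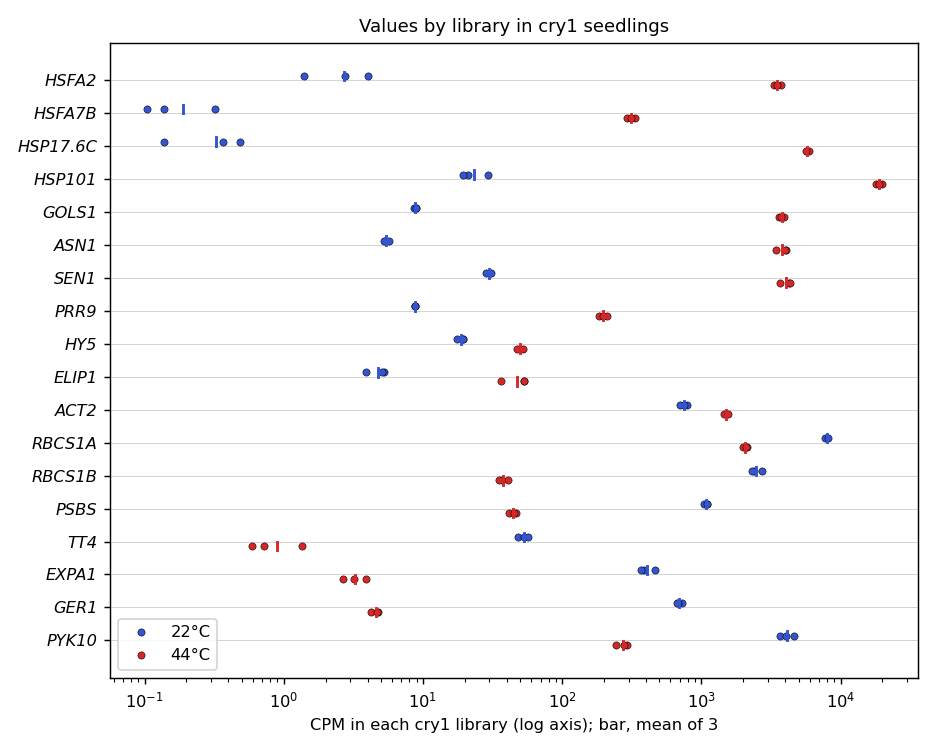
CPM of 18 genes (x axis, log) in each of the 3 *cry1* libraries at 22°C (blue) and the 3 at 44°C (red), with a bar at each mean. In every gene shown, the values of the temperatures are separate; the heated values lie above for the upper 11 genes, from *HSFA2* to *ACT2*, and below for the lower 7, from *RBCS1A* to *PYK10*.

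Outside the lists, the 12 strongest rises were taken among genes with a symbol, above 20 CPM and with no overlap between temperatures. Genes without a symbol were left out. The 12 joined stress factors with enzymes of amino acid and vitamin metabolism. *ASN1*, the asparagine synthetase induced by darkness and low sugar, went from 5.38, 5.26 and 5.66 CPM to 4048, 3412 and 3967 CPM (9.45 ± 0.17, adjusted p = 8.4e-18). *SEN1*, another gene induced by darkness and ageing, went from 30.4, 30.6 and 28.6 CPM to 4229, 3661 and 4342 CPM (7.09 ± 0.11). *THA1*, threonine aldolase, and *BCAT-2*, a branched-chain aminotransferase, rose by 6.16 ± 0.28 and 6.12 ± 0.13. All 4 were far higher in every heated library than in any library at 22°C.

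*PDX1.2*, a non-catalytic member of the vitamin B6 synthase complex that is induced by heat, went from 14.02, 13.2 and 14.5 CPM to 2145, 2209 and 2069 CPM (7.26 ± 0.10). *EGY3*, a protease-like protein of chloroplasts, went from 8.55, 8.38 and 8.41 CPM to 1319, 1562 and 1532 CPM. *FTSH6*, a thylakoid protease that removes HSP21 during recovery from heat, had 3 counts over the 22°C libraries and 26.9, 25.1 and 24.4 CPM at 44°C, a ratio of 507 with a 95% counting interval (exact Clopper-Pearson) of 173 to 2462. *SAP10*, a stress-associated zinc finger protein, had 1 count at 22°C and 21.7, 21.1 and 17.401 CPM at 44°C, a ratio of 1200.0 with an interval of 215 to 47448. The remaining genes of this group were *FBS1* (7.29 ± 0.20), an F-box protein of stress responses, *DIP2* (6.23 ± 0.24), *PPI2* (5.66 ± 0.13), which here is a proton pump interactor, and *TIN1* (5.32 ± 0.16), an ER protein induced by tunicamycin.

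Among the 12 strongest falls outside the lists, under the same limits on symbol, level and overlap, 5 genes belonged to glucosinolate synthesis. *CYP79F1*, which starts the synthesis of short-chain aliphatic glucosinolates, had 14.66, 14.8 and 36.3 CPM at 22°C and no count in any library at 44°C, at least 338-fold lower when the 44°C libraries together are set at 3 counts. Its neighbour *CYP79F2* went from 19.3, 22.6 and 30.3 to 0.372, 0.196 and 0 CPM. *MYB28*, the activator of the aliphatic branch, fell from 59.5, 62.3 and 61.3 CPM to 0.681, 0.524 and 1.05 CPM (-6.33 ± 0.16). *CYP83A1* of the same branch fell by 66.8-fold, and *CYP79B2*, which starts the indolic branch, by 66.9-fold. *CYP79F1* and *CYP79F2* are close copies, and reads could be divided between them.

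The other falls included proteins of the cell surface. *GER1*, a germin-like protein of the cell wall, fell from 721, 681 and 671 CPM to 4.77, 4.25 and 4.66 CPM (-7.24 ± 0.14, adjusted p = 4.1e-19). *EXPB3*, a β-expansin, fell by 78.6-fold, a log2 fold change of -6.30 ± 0.30 that was -6.92 without replicate 2 at 44°C. *LTP6*, a lipid transfer protein, fell from 18.3, 26.4 and 43.5 CPM to 0.31, 0.262 and 0.0657 CPM. *BGLU18*, an ER-body β-glucosidase that frees abscisic acid from its glucose ester, fell from 305, 494 and 581 CPM to 6.07, 9.36 and 5.84 CPM. *LrgB*, a glycolate and glycerate transporter of chloroplasts, fell from 231, 207 and 228 CPM to 3.72, 3.99 and 3.41 CPM, with its libraries tightly grouped at both temperatures. *NHL12* (-6.87 ± 0.25) and *CEP3* (-6.26 ± 0.24), a cysteine endopeptidase, completed the group.

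RNA classes other than mRNA also shifted. Of 39 tested snoRNA genes, 28 rose and none fell (38 and 0 on the median-ratio scale), with a median of 0.91. Of 27 snRNA genes, 14 rose and none fell (26 and 0 on the median-ratio scale). Over all tested genes 11.9% rose and 76.0% fell on CPM, and 36.6% and 39.2% on the median-ratio scale. The shares of these RNA classes were small, at 0.0912 to 0.122% of counts for snoRNA at 22°C and 0.253 to 0.274% at 44°C. The copy of mitochondrial DNA inserted in chromosome 2 (TAIR10.1, positions 3250465 to 3509757) holds 119 genes. They took 3.35 to 3.75% of counts at 22°C and 5.67 to 5.84% at 44°C. Of the 96 tested, 76 rose and 1 fell (96 and 0 on the median-ratio scale). Reads of these genes cannot be told apart from transcripts of the mitochondrial genome. How the share of such RNA moved with the method of RNA selection was not tested; the labels name poly(A) RNA as well as removal of rRNA.

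Exon number and upstream letters were compared between sets of genes by their response. Among 19468 protein-coding genes tested, 15.6% had a single exon in the annotation. The share was 33.7% of the 95 genes that rose by at least 5 log2 units and 32.7% of the 926 that fell by at least 4, but 10.7% of the 7007 not called. Genes with 1 exon had a median of -1.82 and those with 10 or more a median of -1.18, which on the median-ratio scale were -0.63 and 0.01. The same 3-unit heat shock element was found in the 500 bases upstream of 0.868% of all these genes, of 2.76% of the 1014 called higher, of 10.5% of those that rose by at least 5 units, of 0.69% of the 11447 called lower and of 0.756% of those that fell by at least 4. The G-box CACGTG was found in 10.5% of all, 18.3% of those called higher, 23.2% of those that rose by at least 5 units, 9.53% of those called lower and 9.83% of those that fell by at least 4. The core CCGAC, the binding letters of CBF and DREB factors, was found in 23.0% of all, 25.9% of those called higher, 33.7% of those that rose by at least 5 units and 19.3% of those that fell by at least 4. The evening element AAAATATCT was found in 4.5% of all, 7.59% of those called higher, 7.37% of those that rose by at least 5 units and 3.67% of those that fell by at least 4, so its share did not follow the size of the rise. These are descriptions of annotated starts and fixed windows, with both strands searched, and the CACGTG letters read the same on both.

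To show where the response of *cry1* differed from that of WT, the difference between the log2 fold changes was tested for each gene in the same fit. The responses were alike in outline, with a Pearson r of 0.907 across 20213 genes, which are not independent replicates. Of the genes called higher in *cry1*, 85.2% were called higher in WT, and these were 64.8% of the WT calls. Of those called lower in *cry1*, 76.2% were called lower in WT, or 95.7% of the WT calls. On the median-ratio scale these shares were nearly even, at 78.8% and 82% for higher calls and 80.4% and 79.6% for lower calls. The difference passed an adjusted p of 0.05 and 2-fold upward in 290 genes (1.43%) and downward in 1377 (6.81%), and at the adjusted p alone in 841 (4.16%) and 5222 (25.8%). The median difference on CPM was -0.33, and the median gene changed by -1.27 in *cry1* and by -0.89 in WT. On the median-ratio scale the median difference was 0.05, with 660 genes higher and 406 lower at 2-fold, and the excess of lower calls seen on CPM was gone. At the adjusted p alone, 12.3% of differences were positive and 5.76% negative on that scale.

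Counts of list members whose difference passed the adjusted p are set against those shares over all genes. Of 22 clock genes the difference was positive at the adjusted p in 11 and negative in 2 on CPM, and in 18 and 0 on the median-ratio scale. In the cold, dehydration and raffinose list it was positive in 8 of 19 and negative in 1 (12 and 0 on the median-ratio scale), with a median of 0.73 against -0.33 over all genes. Of 43 antenna, photosystem and electron transport genes, 14 differences were positive and 1 negative on CPM, with 28 not past the test, and 38 and 0 on the median-ratio scale. The summed share of this list was lower in *cry1* than in WT at both temperatures, at means of 6.41% against 9.78% of counts at 22°C and 5.06% against 6.31% at 44°C. Cytosolic ribosomal protein genes fell more in *cry1*, with 23 of 24 differences negative on CPM and 12 on the median-ratio scale, and none positive. In contrast, the 28 of 33 proteasome genes whose difference was negative on CPM came down to 0 on the median-ratio scale, with 1 positive. Of the 19 *HSFs*, 3 had a positive and 1 a negative difference (6 and 0 on the median-ratio scale). Of the 16 small HSPs, none had a positive and 2 a negative difference (1 and 0 on the median-ratio scale). These are differences in fold change. The summed share of small HSPs at 44°C was higher in *cry1*, at 5.82 to 6.35% of counts against 4.27 to 5.0% in WT.

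*BBX32*, a B-box protein that represses light responses, rose in *cry1* and had no call in WT. It went in *cry1* from 5.47, 5.16 and 5.19 CPM to 58.6, 53.3 and 46.4 CPM, while WT had means of 14.3 ± 3.39 (SD, n = 3) and 10.8 ± 4.45 CPM, a difference of 3.71 ± 0.33 log2 units (edgeR adjusted p = 1.2e-05). Its relative *BBX30* rose from 11.03, 9.56 and 9.45 CPM to 50.4, 55.2 and 44.9 CPM in *cry1* against 19.7 and 11.99 CPM in WT (3.03 ± 0.22). In both genes the *cry1* values at 22°C lay below the WT mean and those at 44°C above it. *HY5* differed in the same direction, by 1.17 ± 0.15, with WT means of 24.6 and 29.1 CPM.

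*ELIP2*, an early light-induced protein, and *COR15A*, a chloroplast protein that protects membranes in the cold, did not pass the test in *cry1* but fell in WT. *ELIP2* had 4.32, 3.55 and 3.17 CPM and 4.89, 2.68 and 2.101 CPM in *cry1*, which overlapped, against 30.9 and 1.04 CPM in WT (4.68 ± 0.52). *COR15A* had 596, 793 and 679.8 CPM and 396, 668 and 444 CPM in *cry1*, against 151 and 7.77 CPM in WT (3.80 ± 0.53, or 4.42 without WT replicate 2 at 44°C). The genes differed in where the gap stood, since *ELIP2* was lower in *cry1* than in WT at 22°C and *COR15A* was higher in *cry1* at both temperatures. *THI2.2*, a thionin, and *PRP2*, a proline-rich cell wall protein, also fell less in *cry1*, by 3.50 ± 0.30 and 3.15 ± 0.37.

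In the other direction, *UGT74E2* and *SOT12*, both linked to detoxification, rose in WT and did not rise in *cry1*. *UGT74E2*, a glucosyltransferase of indole-3-butyric acid induced by oxidative stress, fell from 16.6, 8.59 and 6.65 CPM to 2.79, 1.83 and 2.23 CPM in *cry1* and had 5.58 and 27.3 CPM in WT (-4.50 ± 0.47). *SOT12*, a sulfotransferase, had 14.9, 13.3 and 9.97 CPM and 15.0, 10.2 and 9.85 CPM in *cry1*, which overlapped, and 10.996 and 54.6 CPM in WT (-2.44 ± 0.23). *DIN11*, a dioxygenase induced by darkness, rose in both genotypes but reached 43.8 CPM in WT and 3.10 CPM in *cry1* (-2.97 ± 0.55). *ABCC3*, a transporter of conjugates, and *ENODL8*, an early nodulin-like protein, fell in *cry1* from 119.6 to 12.9 CPM and from 27.3 to 2.67 CPM, against changes from 60.4 to 36.0 CPM and from 12.8 to 7.602 CPM in WT. All of these differences kept their direction and passed the test on the median-ratio scale.

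**Figure D5:**
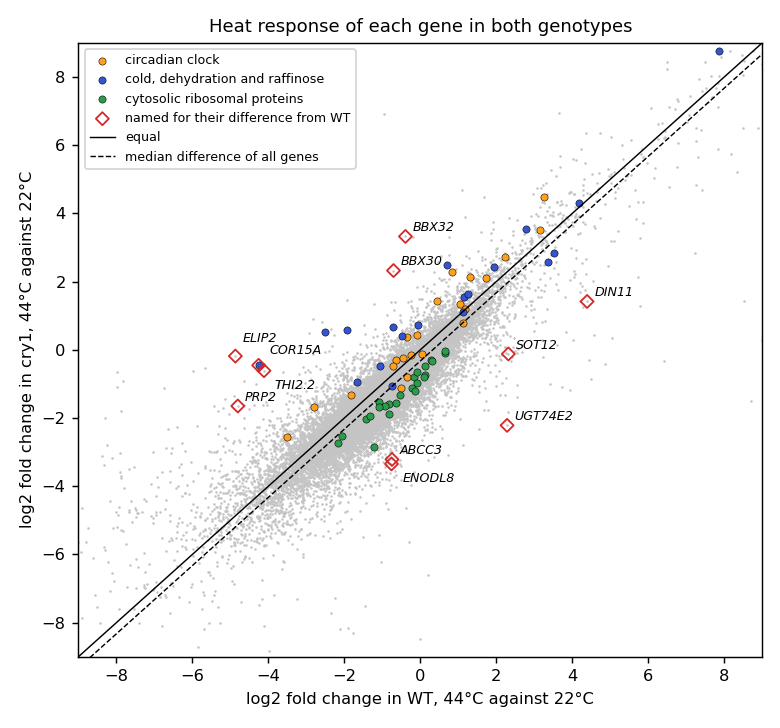
Log2 fold change at 44°C against 22°C of each tested gene in WT (x axis) and *cry1* (y axis), with 3 lists in colour and 11 genes named for the size of their difference as open diamonds; 57 genes fall outside the axes, which end at 9 log2 units. Most genes lie along the dashed line, the equal line shifted by the median difference of -0.33, while *ELIP2*, *COR15A* and *BBX32* lie well above it and *UGT74E2*, *DIN11* and *SOT12* well below.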

How the data were processed

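RNA was sequenced from whole seedlings of *cry1* and WT at 22°C and 44°C, with 3 libraries in each group that the study's methods call independent biological replicates. The authors deposited a table of expected counts per gene, which per the study's methods came from RSEM on trimmed reads against TAIR10, whereas TopHat2 2.0.11 is the aligner listed in the submitters' notes on processing. The sources also differ on RNA selection (poly(A) RNA or removal of rRNA), which would change how much non-coding RNA is counted. Deposited expected counts were rounded to whole numbers, which changed 8.5% to 11.6% of values per library.

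Genes with a mean of at least 0.5 CPM over the 12 libraries were tested with edgeR 4.0.16 (R 4.3.3, robust quasi-likelihood test, 4 groups, library totals as scale, Benjamini-Hochberg adjustment over all tested genes). The response of WT and the difference between responses came from the same fit. A gene was called at an adjusted p below 0.05 and a 2-fold change, and list members at the adjusted p alone. A standard error is the log2 fold change divided by the square root of the F statistic. The steps were tested on simulated data.

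Members, lists and tests were chosen with earlier results of these data known. The 26 lists hold 522 genes, of which 508 were tested. Genes were named as follows: *CRY1*, per list up to 3 rises and 3 falls with the largest log2 fold change (mean of at least 5 CPM in the higher group), outside the lists the 12 largest rises and 12 falls with a symbol and no overlap (at least 20 CPM), the 5 largest gains and losses in share, and the 6 largest differences from WT in each direction among called genes with a symbol (at least 20 CPM in a group). Other members in the text were chosen after their values were seen, and the 6 printed upstream stretches are all those with the element on 3 of the lists. Names and positions come from RefSeq TAIR10.1. Alternatives were TMM and median-ratio scaling, totals without chaperone genes, DESeq2 1.42.0, limma 3.58.1 on log2(CPM + 0.5) and log2(CPM + 0.05), other filters, a replicate block, the 6 *cry1* libraries alone and leaving out each library. Same-numbered *cry1* libraries did not deviate together, so no pairing was used.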

Additional observations from a re-analysis of the deposited data

Results flagged for a closer look

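The heat response of *cry1* differed from that of WT, by the test of the difference in the shared fit and by at least 2-fold, in 24 of the genes named by rule. Over all tested genes, the difference passed the same limits upward in 1.43% and downward in 6.81%. Each value is the log2 fold change in *cry1* minus that in WT, and none of the reasons for these differences was tested. The 12 chosen for the size of the difference were *ELIP2* (4.68), *COR15A* (3.80), *BBX32* (3.71), *THI2.2* (3.50), *PRP2* (3.15), *BBX30* (3.03), *UGT74E2* (-4.50), *CRY1* (-4.26), *DIN11* (-2.97), *ENODL8* (-2.59), *ABCC3* (-2.47) and *SOT12* (-2.44). These 12 were taken from genes already called for this difference, so their passing is no further result. The value of *CRY1*, the mutated gene, rests on its few counts in the mutant and depends on the prior count.

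Among the list members named for their response in *cry1*, the positive differences were those of *ELIP1* (2.55), *TT4* (2.43), *CHIL* (1.27), *PRR9* (1.22), *HY5* (1.17) and *LHY* (1.13). *TT4* fell in both genotypes, to 0.891 CPM in *cry1* and 0.749 CPM in WT, but started from 53.0 CPM in *cry1* and 239 CPM in WT. The negative differences were those of *EXPA10* (-1.80), *RPSAB* (-1.63), *LDH1* (-1.49), *TUB1* (-1.39), *MTHSC70-1* (-1.31) and *HSP15.4* (-1.09). On the median-ratio scale *HSP15.4* no longer passed the test (-0.72, adjusted p = 0.18 in edgeR), and the other 23 did.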

How the results depend on the processing

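The counts of called genes depended mainly on the scale. For *cry1* at 44°C against 22°C, TMM gave 3914 genes higher and 5261 lower and median-ratio scaling 4056 and 5109, against 1163 and 11729 on library totals. A mean of at least 5 CPM gave 7603 lower genes, with fewer genes tested. For *cry1* minus WT, TMM gave 650 higher and 410 lower, median-ratio scaling 660 and 406, and the 5 CPM filter 783 lower, against 290 and 1377. Leaving out 1 library gave 1138 to 1184 genes higher and 11625 to 11749 lower in *cry1*, and 260 to 313 higher and 1090 to 1449 lower for the difference. The replicate block gave 1164 and 11722 genes in *cry1* and 297 and 1372 for the difference. The 3 same-numbered *cry1* pairs had correlations of -0.05 to 0.02, which gave no sign of pairing.

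Of 167 results for named genes, 143 kept direction and call throughout. Under TMM and median-ratio scaling respectively, 17 that were lower on library totals had positive log2 changes: *HSP90.4* 0.48 and 0.51, *HOP1* 0.45 and 0.48, *JMJ30* 0.26 and 0.30, *HSBP* 0.23 and 0.27, *RPT4B* 0.40 and 0.43, *PAD1* 0.42 and 0.45, *RPT2A* 0.053 and 0.087, *RSZ22A* 0.42 and 0.46, *SCL30A* 0.66 and 0.69, *SR34A* 0.60 and 0.63, *TUB1* 0.027 and 0.059, *TUB7* 0.12 and 0.16, *TUB8* 0.23 and 0.27, *COR413-PM1* 0.22 and 0.26, *RS5* 0.085 and 0.12, *PDC1* 0.16 and 0.19, and *OLEO2* 0.13 and 0.16. The calls of *RPT5A*, *CRD1*, *XTH15*, *PORA*, *CRA1*, *OLEO2* and *FKF1* were lost in at least 1 alternative, as was the difference of *CRY1* in limma on log2(CPM + 0.5), which shrinks low values. Leaving out 1 library moved the fold in *cry1* by a factor of over 1.5 in 7 further genes without loss of the call, with log2 values of 15.24 for *HSP23.6* (22°C replicate 2), 11.17 for *SAP10* (22°C replicate 1), 9.58 for *FTSH6* and -10.74 for *CYP79F1* (22°C replicate 3), -7.81 for *CYP79F2* and -6.39 for *FLS1* (44°C replicate 1) and -6.63 for *BIC2* (44°C replicate 3), against 14.27, 9.64, 8.76, -11.35, -6.90, -5.53 and -5.95 with all libraries. Genes under about 1 CPM rest on few counts, and their folds are the least certain.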

Other observations

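Detection was also uneven between the temperatures. In *cry1*, 1914 tested genes averaged at least 0.5 CPM at 22°C and less at 44°C, and 166 did the reverse. No count was seen in any *cry1* library at 44°C for 62 tested genes, 52 of them called lower, and at 22°C for 13 genes, 10 of them called higher. Opposite calls in the genotypes were few, with 2 genes called higher in *cry1* and lower in WT and 14 called lower in *cry1* and higher in WT (9 and 7 on the median-ratio scale). Of 343 long non-coding RNA genes tested, 61 were higher and 169 lower in *cry1* at the adjusted p in edgeR, against 11.9% higher and 76.0% lower over all genes. On the median-ratio scale the balance turned round, with 129 higher and 83 lower, against 36.6% and 39.2% over all genes.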
